A study of Mus musculus with 6 samples.

Results

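The genes described here are Tnf and the other mouse genes whose symbols begin with Tnfsf (ligands of the tumor necrosis factor superfamily) or Tnfrsf (its receptors), without the BAFF and APRIL system (Tnfsf13, Tnfsf13b, Tnfrsf13b, Tnfrsf13c, Tnfrsf17) and without Tnfrsf4 and Tnfrsf18. The rule was applied to the gene symbols alone and found 27 genes among the 47729 in the count table. Of these, 10 encode ligands and 15 encode receptors. The other 2 are Tnfsf13os, a transcript antisense to Tnfsf13, and Tnfsfm13, a read-through of Tnfsf12 into Tnfsf13. RNA was sequenced from whole spleens of NOD.B10 females (n = 3), which carry the H2 haplotype of C57BL/10 on the NOD background and develop a disease like primary Sjögren's syndrome (pSS), and of BL/10 (C57BL10/SnJ) females (n = 3), the healthy control strain. Neither group was treated or carried an engineered allele. Ages are labelled 26 weeks for all libraries except BL/10 replicates 2 and 3, which are labelled 36 weeks, whereas the study describes age-matched mice.

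Ligands of this superfamily are mostly trimers on the cell surface, some of which are shed, and they cluster their receptors on a neighboring cell. Receptors with a death domain, such as TNFR1 (Tnfrsf1a) and the signaling receptor of TRAIL, can recruit adaptors that activate caspases. Many receptors bind TRAF adaptors and activate NF-kB, and a death domain does not exclude this. The decoys bind ligand without passing on a signal. In the spleen, these pairs are known for costimulation of T cells, survival of activated lymphocytes and the organization of lymphoid tissue.

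The title and strain field of each library name one strain, and its description and the name of its column in the count table name the other. The strain of the column names is used throughout, and every direction would be the opposite under the titles. For Ifi202b, an interferon-inducible gene whose expression differs between mouse strains, the NOD.B10 columns hold 838, 624 and 485 reads and the BL/10 columns 2, 0 and 0. The total counts lay between 15662712 and 18298451 per library. Pancreas acinar genes, which are foreign to spleen, summed to 13964, 2139 and 112 CPM (counts scaled for library size) in BL/10 replicates 1, 2 and 3 and to at most 31.3 CPM in NOD.B10. The same sums over neutrophil genes were 6333 to 13301 CPM in BL/10 and 2273 to 2595 CPM in NOD.B10. BL/10 replicate 1, with the most pancreas RNA, is also the only BL/10 library labelled 26 weeks. Every fit without the libraries labelled 36 weeks therefore compares NOD.B10 with this library alone. The spread within BL/10 is not measured in such a fit, and the effect of age was not tested. All 27 genes passed the filter on low counts and were tested with the quasi-likelihood test of edgeR, with p adjusted over 15330 genes and a threshold of 0.05.

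Of the 27 genes, 7 (25.9%) passed the threshold, against 17.3% of all genes tested. Higher in NOD.B10 were 5 genes, 2 ligands (Tnfsf8 and Tnfsf15) and 3 receptors (Tnfrsf25, Tnfrsf22 and Tnfrsf26), and the background for this direction was 9.11%. The 2 lower genes were Tnfrsf19 and Tnfsf13os, with a background of 8.22%. The median log2 fold change was 0.10 over the 27 genes and 0.00 over all genes tested. The libraries of the strains did not overlap for 9 genes (33.3%), the 7 above with Tnf and Tnfrsf11a, whereas 38.0% of all genes tested showed no overlap. These shares were not tested against each other, and the results below concern single genes.

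**Figure D1:**
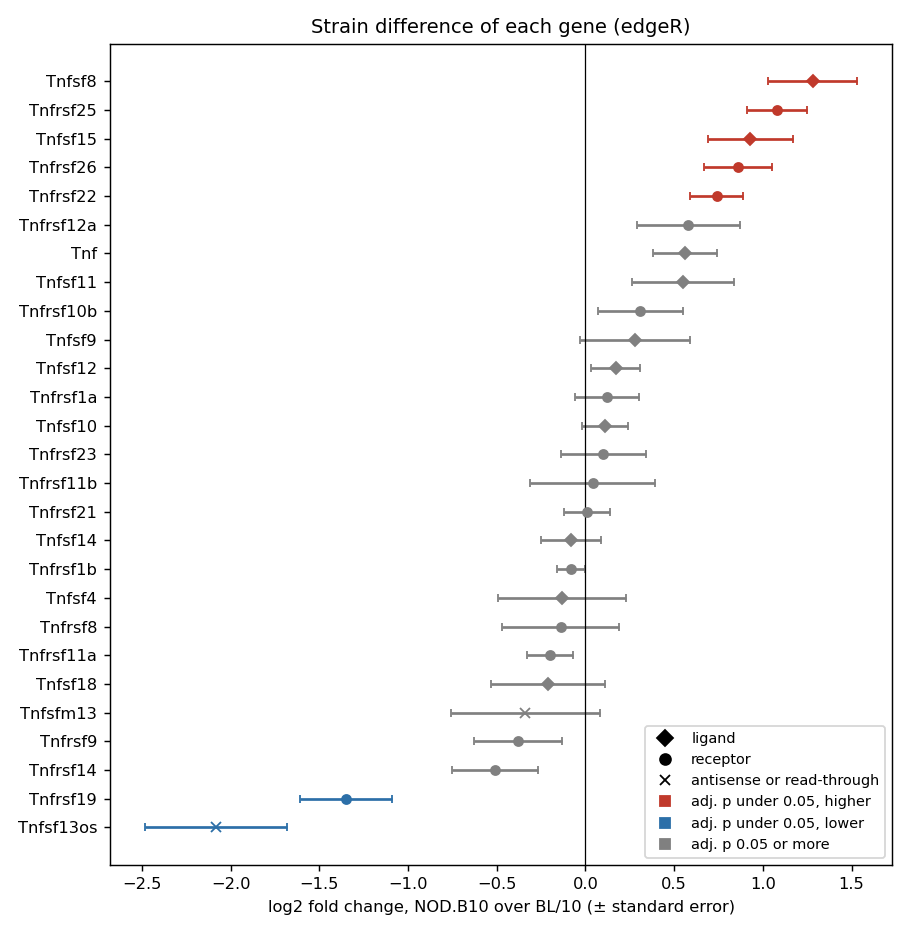
Log2 fold change of NOD.B10 over BL/10 spleens (x axis, edgeR estimate ± standard error, 3 libraries per strain) for each of the 27 genes. Red and blue mark the 5 higher and 2 lower genes past the threshold, and the 20 grey genes lie between -0.51 and 0.58.

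Tnfsf8 encodes the ligand of CD30 (CD30L) and is expressed by activated T cells among others. It was present at 25.8, 24.1 and 29.2 CPM in NOD.B10 and at 15.7, 8.72 and 8.01 CPM in BL/10. All NOD.B10 libraries lay above all BL/10 libraries, and BL/10 replicate 1 was the highest of its strain. The log2 fold change was 1.28 (standard error 0.25, edgeR adjusted p = 0.0125), a 2.42-fold higher level. Its adjusted p ran from 2.16e-05 to 0.0514 over 15 alternatives and missed the threshold only without NOD.B10 replicate 3 (0.0514). The log2 fold change ran from 0.74 to 1.65 over them and was lowest without both libraries labelled 36 weeks. The receptor gene Tnfrsf8 (CD30) was found at 1.85 to 2.47 CPM in NOD.B10 and at 1.42 to 3.42 CPM in BL/10, and its libraries overlapped (log2 fold change -0.14, standard error 0.33, edgeR adjusted p = 0.794).

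The ligand TL1A and its receptor DR3, a death domain receptor that costimulates T cells, are encoded by Tnfsf15 and Tnfrsf25. Both genes of this pair were higher in NOD.B10. Tnfrsf25 had 8.85, 8.78 and 8.71 CPM in NOD.B10 and 5.05, 3.62 and 3.75 CPM in BL/10. The NOD.B10 libraries were nearly level, and none reached down to the BL/10 range. Its log2 fold change of 1.08 (standard error 0.17, edgeR adjusted p = 0.0049) had the smallest p of the 27 genes, and it passed the threshold without each replicate in turn. The adjusted p was lowest with DESeq2 (1.44e-05). Without both libraries labelled 36 weeks, which left BL/10 replicate 1 alone in its strain, Tnfrsf25 did not pass. Its log2 fold change was then 0.80, the lowest over 15 alternatives.

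Tnfsf15 is a gene of endothelial and myeloid cells and was scarce, with 36, 35 and 30 reads counted in NOD.B10 against 16, 15 and 22 in BL/10, or 1.69 to 2.15 CPM against 0.869 to 1.25 CPM. The strains did not overlap. The log2 fold change was 0.93 (standard error 0.24, edgeR adjusted p = 0.0354) and stayed between 0.80 and 1.19 over 15 alternatives, but the adjusted p passed the threshold in only 6 of them. The threshold was missed with DESeq2 (0.0727), with a replicate block (0.0682) and in all 6 fits without a replicate (0.0515 to 0.128). It was also missed without the libraries labelled 36 weeks, with BL/10 replicate 1 alone in its strain (log2 fold change 1.19).

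**Figure D2:**
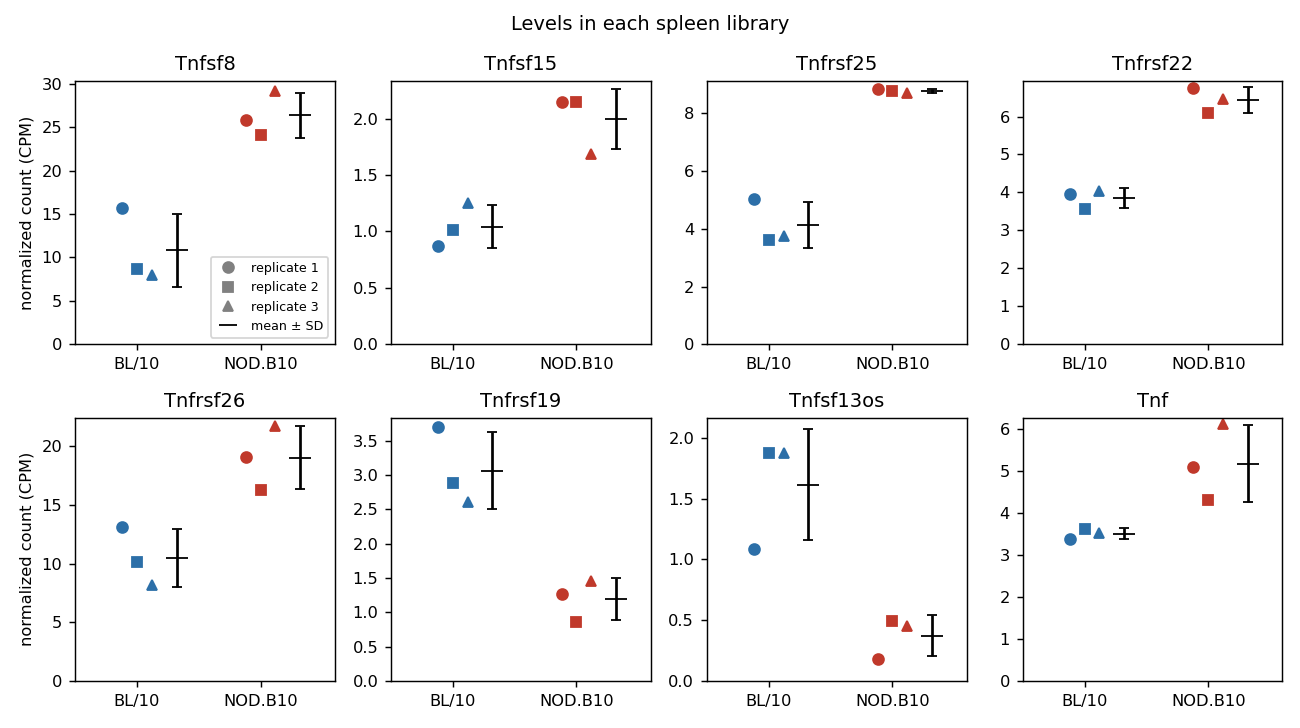
Normalized counts (CPM, y axes starting at 0) in each of 3 BL/10 (blue) and 3 NOD.B10 (red) spleen libraries, with the mean ± SD in black, for the 7 genes past the threshold and Tnf. The strains are apart in every panel, and BL/10 replicate 1 (circle) is the BL/10 library nearest to NOD.B10 for Tnfsf8, Tnfrsf25, Tnfrsf26 and Tnfsf13os.

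The genes Tnfsf8 and Tnfsf15 are neighbors on chromosome 4 of build GRCm38 (chr4:63831308-63861347 and chr4:63727084-63745113, both on the minus strand), with 86194 bases and no other gene of the table between them. Tnfrsf25 (chr4:152115934-152120119, plus strand) lies on the same chromosome. Because the data bear on the transcript levels of these genes, the 180 bases before the start of each counted gene model are given from RefSeq (GRCm38.p6), together with those of Tnfrsf19, the receptor gene that was lower, and of Tnf. Sequences read from 5′ to 3′ along the strand of the gene, and capitals mark matches to any of 4 motifs on either strand (TATAAA, the AP-1 motif TGANTCA, the RUNX motif TGTGGT and the NF-kB consensus). For Tnfsf8 and Tnfsf15, this start lies 63 and 54 bases before that of RefSeq. RefSeq promoters were found for 19 of the 27 genes.
Tnfsf8, chr4:63861348-63861527, minus strand: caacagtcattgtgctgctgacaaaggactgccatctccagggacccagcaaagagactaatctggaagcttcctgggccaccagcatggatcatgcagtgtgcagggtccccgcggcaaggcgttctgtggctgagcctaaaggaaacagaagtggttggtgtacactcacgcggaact
Tnfsf15, chr4:63745114-63745293, minus strand: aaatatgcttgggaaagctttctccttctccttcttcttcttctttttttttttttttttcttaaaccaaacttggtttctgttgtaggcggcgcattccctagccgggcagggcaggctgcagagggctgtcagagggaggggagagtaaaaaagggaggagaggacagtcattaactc
Tnfrsf25, chr4:152115754-152115933, plus strand: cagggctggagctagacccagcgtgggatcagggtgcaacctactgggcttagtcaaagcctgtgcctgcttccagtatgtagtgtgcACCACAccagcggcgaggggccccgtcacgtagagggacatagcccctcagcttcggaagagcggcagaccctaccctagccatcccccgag
Tnfrsf19, chr14:61046856-61047035, minus strand: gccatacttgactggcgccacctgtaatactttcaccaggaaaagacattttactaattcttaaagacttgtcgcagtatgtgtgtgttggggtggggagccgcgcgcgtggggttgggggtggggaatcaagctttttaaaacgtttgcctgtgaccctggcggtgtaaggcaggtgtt
Tnf, chr17:35202008-35202187, minus strand: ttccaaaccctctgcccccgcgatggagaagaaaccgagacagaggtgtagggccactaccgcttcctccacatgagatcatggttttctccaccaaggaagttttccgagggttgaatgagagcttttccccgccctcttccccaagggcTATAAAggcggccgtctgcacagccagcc

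The window of Tnf held the TATA motif, which 8.94% of 32851 RefSeq promoters of the same length hold, and that of Tnfrsf25 held the RUNX motif on the opposite strand, found in 10.1%. The AP-1 motif occurs in 4.97% and the NF-kB consensus in 5.49% of all windows, and neither occurred in these 5. The letters of Tnfsf8, Tnfsf15 and Tnfrsf19 matched none of the motifs. The windows behind these shares end at the RefSeq start. For Tnfsf8 and Tnfsf15, the 63 and 54 bases directly before that start were therefore not searched. With no match in either window, sharing of a motif between the neighbors Tnfsf8 and Tnfsf15 could not be assessed.

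Many T cell genes also differed between the strains. Of 20 T cell markers, 16 were higher in NOD.B10 (median log2 fold change 1.13), and their summed level was 1545 to 2158 CPM in NOD.B10 and 803 to 1082 CPM in BL/10, with BL/10 replicate 1 highest in its strain. Without the libraries labelled 36 weeks, 9 of the 20 passed. Of 5 regulatory T cell markers, 3 were higher, but only 1 without NOD.B10 replicate 2, NOD.B10 replicate 3, BL/10 replicate 2 or BL/10 replicate 3, 2 without NOD.B10 replicate 1, and 0 without the libraries labelled 36 weeks. All markers of both lists were detected, Cd3e, Cd4 and Cd8a included. In bulk tissue, a difference in the number of cells of a type and a difference in RNA per cell cannot be told apart.

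The levels were also expressed as a percent of the summed T cell marker CPM of the same library, a measure chosen after the values were seen. Tnfsf8 then stood at 1.54%, 1.56% and 1.35% in NOD.B10 and at 1.46%, 0.998% and 0.998% in BL/10. The strains overlapped through BL/10 replicate 1 alone, and the means were 1.48% and 1.15%. For Tnfrsf25 the values were 0.53%, 0.568% and 0.404% against 0.467%, 0.415% and 0.467%, again with overlap. The strains also overlapped for Tnfsf15, Tnfrsf22 and Tnfrsf26 on this scale. The sum of T cell markers was itself higher in NOD.B10. A gene with a similar or smaller fold change can therefore overlap on this scale, whatever cells express it. Tnfsf15, for example, is described above as a gene of endothelial and myeloid cells. All NOD.B10 libraries lay above BL/10 for Cd40lg (0.378% to 0.398% against 0.163% to 0.231%) and Cd27 (2.16% to 2.35% against 1.71% to 1.80%). Both are superfamily genes described below. The scale was computed for these genes only, so no share over all genes is known. The part of T cell number in the strain differences was not tested.

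**Figure D3:**
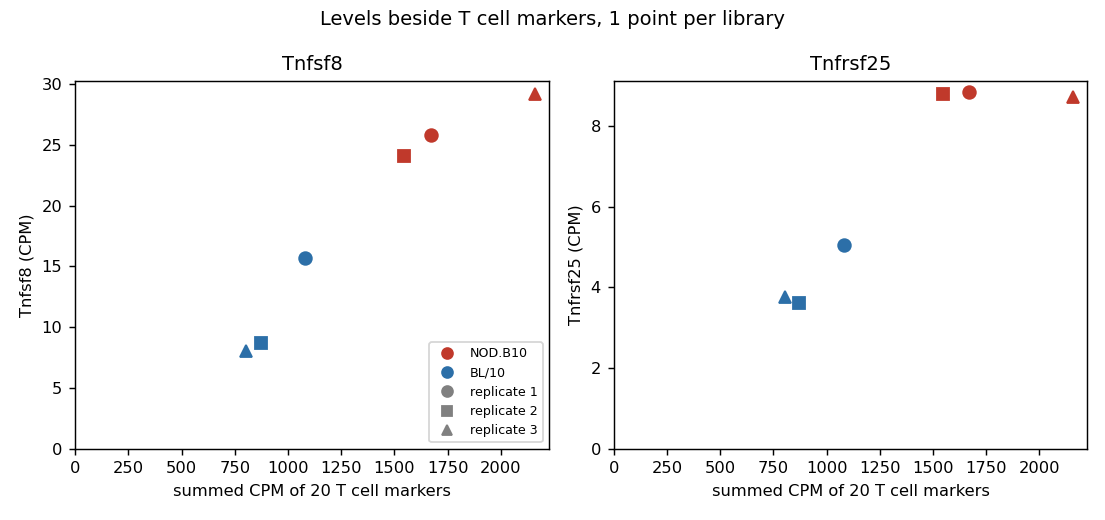
Level of Tnfsf8 and Tnfrsf25 (y axes, CPM) against the summed CPM of 20 T cell markers (x axes) in each of 3 NOD.B10 (red) and 3 BL/10 (blue) libraries. NOD.B10 libraries lie at 1545 to 2158 CPM of T cell markers and BL/10 libraries at 803 to 1082 CPM, and the strains are apart on both axes.

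Tnfrsf26, Tnfrsf22 and Tnfrsf23 form a row of related receptor genes on chromosome 7 (chr7:143607659-143628722, chr7:143634806-143649661 and chr7:143665809-143685872, all on the minus strand). Tnfrsf22 and Tnfrsf23 encode decoy receptors of TRAIL. Tnfrsf22 was found at 6.76, 6.08 and 6.46 CPM in NOD.B10 and at 3.96, 3.55 and 4.03 CPM in BL/10, without overlap. This was a 1.67-fold higher level (log2 fold change 0.74, standard error 0.15, edgeR adjusted p = 0.0137). The adjusted p was over the threshold without NOD.B10 replicate 1 (0.0678) and lowest with DESeq2 (0.00627). Tnfrsf22 also did not pass without the libraries labelled 36 weeks, with BL/10 replicate 1 alone in its strain (log2 fold change 0.70).

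Tnfrsf26 was higher as well, with 19.1, 16.3 and 21.7 CPM in NOD.B10 and 13.1, 10.1 and 8.18 CPM in BL/10. Its log2 fold change was 0.86 (standard error 0.19, edgeR adjusted p = 0.0199). This call depended on the replicates, since only 2 of the 6 fits without a replicate kept it (adjusted p from 0.00563 to 0.0719), and it was lost without NOD.B10 replicate 1, NOD.B10 replicate 3, BL/10 replicate 2 or BL/10 replicate 3. It was also lost without the libraries labelled 36 weeks, with BL/10 replicate 1 alone in its strain (log2 fold change 0.54).

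Tnfrsf23, the last gene of the row, had 1.35 to 2.02 CPM in NOD.B10 and 1.47 to 1.88 CPM in BL/10 (log2 fold change 0.10, standard error 0.24, edgeR adjusted p = 0.795). Whether the strain difference itself differed between Tnfrsf22 and Tnfrsf23 was not tested. The sequencing reads were 50 bases long, and 27.4% of the 50-base words in the transcripts of Tnfrsf22 and 19.3% of those of Tnfrsf23 also occur in transcripts of other genes, each other included. Reads from such words cannot be assigned to a single gene. Exons of Tnfrsf26 and Tnfrsf23 also overlap those of E230032D23Rik over 3.3% and 4.1% of their bases, and this gene did not pass the threshold (log2 fold change -0.40, standard error 0.36, edgeR adjusted p = 0.465).

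The ligand of these decoys, TRAIL (Tnfsf10), which can trigger cell death, was found at 18.5 to 21.1 CPM in NOD.B10 and at 15.7 to 21.1 CPM in BL/10. The libraries overlapped (log2 fold change 0.11, standard error 0.13, edgeR adjusted p = 0.573). The signaling TRAIL receptor Tnfrsf10b was low in both strains, from 1.25 to 2.14 CPM, and its difference did not pass the threshold (log2 fold change 0.31, standard error 0.24, edgeR adjusted p = 0.399).

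Tnfrsf19 (TROY), an orphan-like receptor known from epithelial and neural progenitors, was lower in NOD.B10. The counts were 21, 14 and 26 for NOD.B10 and 68, 43 and 46 for BL/10, which gave 1.26, 0.86 and 1.46 CPM against 3.69, 2.88 and 2.61 CPM. The highest NOD.B10 library lay below the lowest BL/10 library. The level was 2.56-fold lower in NOD.B10 (log2 fold change -1.35, standard error 0.26, edgeR adjusted p = 0.0124). The call was lost only without NOD.B10 replicate 1 (adjusted p = 0.0527, within 0.0015 to 0.0527 over 15 alternatives). Without BL/10 replicate 1, which held 13964 CPM of pancreas genes, the log2 fold change was -1.20 (edgeR adjusted p = 0.0178). BL/10 replicate 2, with 2139 CPM of them, stayed in that fit. With BL/10 replicate 1 as the only BL/10 library, the log2 fold change was -1.62. The BL/10 levels of Tnfrsf19 fell in the order of the pancreas sums (13964, 2139 and 112 CPM). The part of the pancreas genes in the difference was not tested. Of 13 stromal and endothelial markers, 4 were higher and 1 was lower (3 passed without NOD.B10 replicate 1 or BL/10 replicate 2, and 2 without the libraries labelled 36 weeks), and their summed level was 1013 to 1198 CPM in NOD.B10 and 882 to 1071 CPM in BL/10. The part of these cell types in the difference of Tnfrsf19 was not tested.

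Tnfsf13os had the largest fold change of the group but few reads, with 3, 8 and 8 reads in NOD.B10 against 20, 28 and 33 in BL/10. The 3 reads of NOD.B10 replicate 1 (0.179 CPM) lay at the floor of detection. All NOD.B10 libraries lay below BL/10, and replicate 1 was the lowest in each strain. The log2 fold change was -2.08 (standard error 0.40, edgeR adjusted p = 0.0122), or 4.22-fold lower in NOD.B10. Without NOD.B10 replicate 1 the log2 fold change was -1.76 (edgeR adjusted p = 0.046). Tnfsf13os passed the threshold without each replicate in turn, and its adjusted p was lowest with DESeq2 (0.0018). It did not pass without the libraries labelled 36 weeks, with BL/10 replicate 1 alone in its strain (log2 fold change -1.52). It shares 22.8% of its exon bases with Tnfsf13 and Tnfsfm13 on the opposite strand, and the counting did not use strand. Tnfsf13, which encodes APRIL, had 4.18 to 5.80 CPM in NOD.B10 and 4.18 to 7.51 CPM in BL/10 and did not pass the threshold (log2 fold change -0.21, standard error 0.24, edgeR adjusted p = 0.583).

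Tnf (chr17:35199381-35202007, minus strand) lies within the H2 complex, which both strains carry in the C57BL/10 form. It encodes a cytokine made mainly by activated macrophages and lymphocytes. Its level was 5.08, 4.30 and 6.12 CPM in NOD.B10 and 3.37, 3.62 and 3.52 CPM in BL/10. Every NOD.B10 library exceeded every BL/10 library, and the BL/10 values spanned a narrow range. The level was 1.48 times that of BL/10 and did not pass (log2 fold change 0.56, standard error 0.18, edgeR adjusted p = 0.0722), and the adjusted p stayed between 0.0621 and 0.29 over 15 alternatives.

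The receptors of TNF were among the most abundant transcripts of the group. Tnfrsf1b (TNFR2, the receptor of lymphocytes and myeloid cells) had 126, 116 and 122 CPM in NOD.B10 and 126, 132 and 129 CPM in BL/10. The strains met at 126 CPM, and the difference was small (log2 fold change -0.08, standard error 0.08, edgeR adjusted p = 0.496). Tnfrsf1a (TNFR1, the death domain receptor) had 90.1, 76.9 and 56.9 CPM in NOD.B10 and 59.1, 68.2 and 79.2 CPM in BL/10. Its NOD.B10 libraries spanned the whole BL/10 range (log2 fold change 0.12, standard error 0.18, edgeR adjusted p = 0.684). Tnfrsf21 (DR6), another death domain receptor, lay at 69.8 to 80.3 CPM and 61.2 to 85.5 CPM, with a log2 fold change of 0.01 (standard error 0.13, edgeR adjusted p = 0.969).

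Tnfrsf14 encodes HVEM, which binds LIGHT and the inhibitory receptor BTLA on lymphocytes. It had 49.8, 61.5 and 47.2 CPM in NOD.B10 and 47.2, 88.4 and 89.4 CPM in BL/10. Only BL/10 replicate 1 lay within the NOD.B10 range, and the other BL/10 libraries, both labelled 36 weeks, lay above it. With all libraries the difference did not pass the threshold (log2 fold change -0.51, standard error 0.24, edgeR adjusted p = 0.177). Without BL/10 replicate 1 the log2 fold change was -0.76 and the adjusted p 0.00745. Without both libraries labelled 36 weeks, with BL/10 replicate 1 alone in its strain, the log2 fold change was 0.16. These were the lowest and highest log2 fold changes of 15 alternatives. The summed neutrophil genes were also lower in BL/10 replicate 1 (6333 CPM) than in BL/10 replicates 2 and 3 (13301 and 11675 CPM), and their part in this difference was not tested. The labelled age cannot be told apart from other differences between these libraries. The ligand LIGHT (Tnfsf14) was found at 12.2 to 19.6 CPM in NOD.B10 and 16.4 to 18.6 CPM in BL/10 (log2 fold change -0.08, standard error 0.17, edgeR adjusted p = 0.765).

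The RANK system, known for osteoclasts and for lymph node development, did not pass the threshold at any of its 3 genes. Tnfsf11 (RANKL) had 5.50, 5.28 and 5.39 CPM in NOD.B10 and 5.43, 3.15 and 2.39 CPM in BL/10, so that BL/10 replicate 1 again matched NOD.B10. Its log2 fold change was 0.55 (standard error 0.29, edgeR adjusted p = 0.213). Without BL/10 replicate 1 it was 0.96 with an adjusted p of 0.0133, the lowest over 15 alternatives that reached 0.985. Tnfrsf11a (RANK) had 10.1, 9.46 and 8.04 CPM in NOD.B10 and 10.6, 10.5 and 10.6 CPM in BL/10. The strains did not overlap, but the difference was small (log2 fold change -0.20, standard error 0.13, edgeR adjusted p = 0.302). The decoy Tnfrsf11b (osteoprotegerin) had only 8 to 20 counts per library.

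Of the remaining genes, none passed the threshold. Tnfrsf12a (FN14, the receptor of TWEAK) had the highest of these log2 fold changes, 0.58 (standard error 0.29, edgeR adjusted p = 0.191), with 2.87 to 4.55 CPM in NOD.B10 and 1.74 to 3.24 CPM in BL/10. Its ligand Tnfsf12 was at 8.97 to 10.8 CPM and 7.58 to 9.34 CPM. Tnfrsf9 (CD137), a costimulatory receptor of activated T cells, had 4.89 to 5.50 CPM in NOD.B10, whereas BL/10 replicates 1, 2 and 3 had 9.40, 5.83 and 4.94 CPM (log2 fold change -0.38, standard error 0.25, edgeR adjusted p = 0.313). The ligands of CD137, OX40 and GITR (Tnfsf9, Tnfsf4 and Tnfsf18) had 9 to 27 counts per library, and their adjusted p was between 0.558 and 0.831. Tnfsfm13 had 7 to 25 counts and shares 78.1% of its exon bases with other genes, and 48.3% of those of Tnfsf12 are shared with it.

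Levels were compared between genes as CPM per kilobase of exon, averaged over 6 libraries. Tnfrsf14 was the highest receptor at 55.2, followed by Tnfrsf1b (32.8), Tnfrsf1a (27.7) and Tnfrsf21 (20.8). On this scale, no other receptor was above 4.59 (Tnfrsf26), and the lowest was Tnfrsf11b at 0.266. Tnfsf12 was given no place in the order, because reads on the 48.3% of its exon bases shared with Tnfsfm13 were not counted and its value of 6.05 over the full length is too low. Among the other 9 ligands, Tnfsf14 was the highest at 9.02, ahead of Tnfsf8 (4.88), Tnfsf10 (3.61) and Tnf (2.65), and Tnfsf15 was the lowest at 0.454. The medians were 2.33 over 10 ligands and 2.19 over 15 receptors. By strain, Tnfsf8 stood at 6.92 ± 0.68 (SD, n = 3) in NOD.B10 and at 2.84 ± 1.12 in BL/10.

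**Figure D4:**
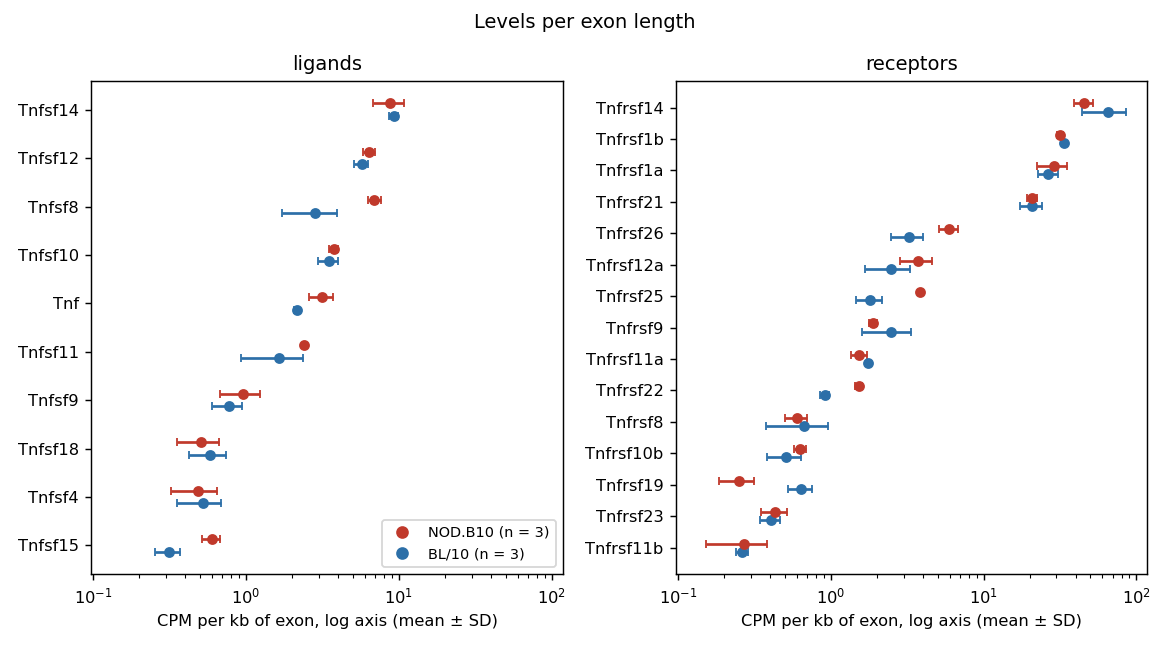
Level of 10 ligand and 15 receptor genes as CPM per kilobase of exon (x axes, log scale; mean ± SD of 3 NOD.B10 libraries in red and 3 BL/10 libraries in blue). Receptors reach 55.2 (Tnfrsf14, mean of all libraries) and Tnfsf14 reaches 9.02, while Tnfsf12 is drawn over its full length and so too low.

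Superfamily genes that carry other names were taken from a list of 14. Of 13 tested, 3 were higher and 1 was lower in NOD.B10, where the shares of all genes tested were 9.11% and 8.22%, and the median log2 fold change was 0.43 against 0.00. Cd40lg, the T cell ligand that activates B cells, had 6.40, 5.83 and 8.60 CPM in NOD.B10 and 2.50, 1.54 and 1.31 CPM in BL/10. This was a log2 fold change of 1.95 (standard error 0.28, edgeR adjusted p = 0.00358), above that of each of the 5 higher genes of the group. Cd27, a costimulatory receptor of T and B cells, was at 40.7 ± 8.68 CPM (SD, n = 3) against 16.2 ± 2.13 CPM (log2 fold change 1.33, standard error 0.17, edgeR adjusted p = 0.00222). Its ligand Cd70 had at most 1 count in any library and was not tested. Edar was higher at a low level (log2 fold change 1.38, standard error 0.28, edgeR adjusted p = 0.0144), and Ngfr, the neurotrophin receptor found on stromal cells, was lower (log2 fold change -1.02, standard error 0.20, edgeR adjusted p = 0.0119). Fas, Cd40 and Eda did not pass the threshold (edgeR adjusted p = 0.0666, 0.067 and 0.0777), although DESeq2 called Fas and Cd40. The count was 8 genes without BL/10 replicate 1 and 2 genes (Cd27 and Cd40lg) without NOD.B10 replicate 1 or without the libraries labelled 36 weeks.

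The genes left out of the group that also act in T cell costimulation were both higher in NOD.B10. Tnfrsf18 (GITR) differed by 0.97 on the log2 scale (standard error 0.16, edgeR adjusted p = 0.00573), and Tnfrsf4 (OX40) by 0.55 (standard error 0.15, edgeR adjusted p = 0.0452). The value of Tnfrsf4 lay close to the threshold, and the alternatives are not given for either gene.

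Downstream of the receptors, Ikbkb, a kinase that activates NF-kB, was higher (log2 fold change 0.47, standard error 0.11, edgeR adjusted p = 0.0246). Mlkl, the effector of necroptosis, fell by 0.77 on the log2 scale (standard error 0.17, edgeR adjusted p = 0.0223). With all libraries, the TRAF genes, Ripk1, Fadd, Tradd and Casp8 did not pass the threshold. Traf1 passed without NOD.B10 replicate 2, and Traf1 and Traf5 passed without BL/10 replicate 1. The calls of Ikbkb and Mlkl also turned on the replicates. Ikbkb passed without NOD.B10 replicate 2 or BL/10 replicate 1 and in none of the other fits without a replicate, and Mlkl passed without NOD.B10 replicate 1, BL/10 replicate 1 or BL/10 replicate 3 and not in the others. Neither passed without the libraries labelled 36 weeks. Of 5 genes for the shedding of TNF, Rhbdf1 was higher (log2 fold change 0.52, standard error 0.12, edgeR adjusted p = 0.0209), and the sheddase Adam17 did not pass. Rhbdf1 no longer passed without NOD.B10 replicate 1, NOD.B10 replicate 3, BL/10 replicate 2 or the libraries labelled 36 weeks. Of 17 tested NF-kB targets, 2 passed, against 17.3% of all genes tested. The adhesion gene Vcam1, also a macrophage marker, was higher (log2 fold change 0.39, standard error 0.11, edgeR adjusted p = 0.0492) and the chemokine gene Ccl5 was lower (log2 fold change -0.55, standard error 0.12, edgeR adjusted p = 0.0209). Vcam1 did not pass with RLE size factors or without any single replicate. Of these targets, 5 passed without BL/10 replicate 1, 1 without NOD.B10 replicate 1, NOD.B10 replicate 3 or BL/10 replicate 3, and none without BL/10 replicate 2 or without the libraries labelled 36 weeks. Ccl5 did not pass in either of these last fits, nor without NOD.B10 replicate 3, where the gene that passed was Il1b.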

How the data were processed

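The authors sequenced RNA from whole spleens of 6 females (3 NOD.B10, 3 BL/10) with 50-cycle single-end reads. The deposited values are raw counts per gene and library, without normalization. According to the file header, the authors counted reads on exons with featureCounts version 1.5.1 and Ensembl annotation 84 of GRCm38. The methods name Tophat2 for mapping, and the submitters' processing notes list HISAT2 version 2.0.5. Reads shared by several genes or places are left out by these settings, and strand was not used. The table also gives gene length, which belongs to no sample.

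Strains were taken from the descriptions and column names. Replicate numbers are those in the titles, and p-values measure the spread between these 6 mice. Counts were analysed with R version 4.3.3 and edgeR version 4.0.16 (filterByExpr, TMM normalization, quasi-likelihood test, Benjamini-Hochberg adjustment), with DESeq2 version 1.42.0 and limma version 3.58.1 (voom with quality weights) as alternatives. CPM are on the TMM scale, and a count of 3, the floor of detection for counting error, was 0.163 to 0.201 CPM. With 3 libraries against 3, a permutation of single values cannot give a p under 0.1, so the fit across all genes was used. The standard error is the size of the log2 fold change over the square root of its F value. Symbols came from GENCODE M21, which matched 47224 of 47729 gene identifiers, and words of 50 bases were compared with its transcripts. All 27 genes of the group were named, with values in every library for those past the threshold, those whose strains did not overlap, and Tnf with its receptors. The other genes given by library (Tnfrsf14, Tnfsf11, Tnfrsf9) and the T cell marker scale were picked after their values were seen. Members and gene lists were chosen with earlier results of these data known, and the lists came from general knowledge. A gene of the signaling list is not reported here, so no count is given for that list. The other alternatives were RLE and upper-quartile normalization, leaving out hemoglobin, immunoglobulin and pancreas genes, a minimum of 1 count in all or 10 counts in every library, a replicate block, leaving out each replicate or the libraries labelled 36 weeks, and a threshold of 0.01. The procedure was tested on simulated data.

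Markers of the other cell types are given as genes past the threshold. Higher in NOD.B10 were 8 of 12 plasma cell genes (3 without NOD.B10 replicate 3 or BL/10 replicate 3, 4 without NOD.B10 replicate 2 or BL/10 replicate 2, 5 without NOD.B10 replicate 1). Of 12 macrophage genes 2 were higher and 1 lower (1 in all without NOD.B10 replicate 1, BL/10 replicate 2 or BL/10 replicate 3; 6 with DESeq2), and of 10 NK cell genes 1 was higher and 1 lower (0 without NOD.B10 replicate 3). Lower were 11 of 12 neutrophil genes (7 without NOD.B10 replicate 1), 8 of 12 interferon genes (3 without NOD.B10 replicate 3, 5 without NOD.B10 replicate 1, BL/10 replicate 2 or BL/10 replicate 3), 2 of 10 megakaryocyte genes (4 without BL/10 replicate 2 and 0 without any other replicate) and 12 of 12 tested pancreas acinar genes (0 without NOD.B10 replicate 1 or 3, 1 without NOD.B10 replicate 2). With edgeR 0 of 12 B cell, 10 dendritic cell, 12 erythroid and 10 proliferation genes passed, but without BL/10 replicate 1 8 B cell, 5 erythroid and 7 proliferation genes did, and with DESeq2 1 B cell, 1 dendritic cell, 2 erythroid and 4 proliferation genes. Without the libraries labelled 36 weeks, 0 plasma cell, 1 interferon and 7 neutrophil genes passed.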

Additional observations from a re-analysis of the deposited data

How the results depend on the processing

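Of 401 refits of single genes, 362 kept the direction and the side of the threshold, 20 lost the call, 2 gained it and 17 changed sign, all of the last in genes that had not passed. The causes of these changes were not tested. Without the libraries labelled 36 weeks, a single BL/10 library was left, whose spread was assumed to be that of the others, and 1001 of all genes and 2 of the group (Tnfsf8 and Tnfrsf19) passed. At an adjusted p under 0.01, 1035 of the 15330 genes tested and 1 of the 27 in the group (Tnfrsf25) passed. Without each replicate in turn, 1269 to 4107 of all genes and 3 to 8 of the 27 in the group passed. Both counts were lowest without NOD.B10 replicate 1 and highest without BL/10 replicate 1. These fits tested 15582 to 15635 genes. NOD.B10 replicate 3, BL/10 replicate 2 and BL/10 replicate 3 also moved the count of all genes (1395, 1580 and 1744), and NOD.B10 replicate 3 that of the group (4). With DESeq2 3254 of 27067 genes passed, and with limma-voom 3344 of 15330. The replicate numbers were not shown to pair the mice, since the deviations of same-numbered libraries correlated at 0.03, 0.17 and -0.08. A replicate block gave 2889 of all genes and 6 of the group, Tnfsf15 being lost. Without the libraries labelled 36 weeks the log2 fold change changed sign for Tnfsf10 (-0.09), Tnfsf11 (-0.01), Tnfsf9 (-0.04) and Tnfrsf14 (0.16), with limma-voom for Tnfsf4 (0.02) and Tnfrsf11b (-0.09), and with RLE size factors for Tnfrsf21 (-0.00053). Across the fits without a replicate it ran from -0.36 to 0.13 for Tnfsf4, -0.40 to 0.23 for Tnfrsf8, -0.04 to 0.28 for Tnfrsf1a, -0.03 to 0.25 for Tnfrsf23, -0.62 to 0.17 for Tnfsfm13, -0.37 to 0.26 for Tnfrsf11b, -0.13 to 0.11 for Tnfrsf21 and -0.24 to 0.09 for Tnfsf14. A minimum of 10 counts in every library left out 4 genes of the group, Tnfsf13os among them. Genes with few counts per library have the widest errors, and their differences may be missed at this depth.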
